A study of Mus musculus with 12 samples.

Results

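Genes of B cells and of the lymphoid follicles in which they gather were followed in every colon library of the series. The 9 genes, chosen by symbol, were Cd79a, Cd79b, Ms4a1, Cr2, Pax5, Cxcr5, Cxcl13, Ccl19 and Ccr7, and they took up 10 of the 52636 gene rows because Ccl19 has 2 rows. RNA sequencing was done on adenoma (T) and adjacent normal colon (N) of C57BL/6 mice. All mice carried ApcMin/+, a mutation that truncates the tumor suppressor Apc and leads to intestinal adenomas, and no group lacked it. The genotypes were ApcMin/+; Cul4bWT (here WT) and ApcMin/+; Cul4bΔIEC (here KO), a deletion of the ubiquitin ligase scaffold Cul4b in intestinal epithelial cells, for which the labels name no promoter or recombinase. For each genotype and tissue, 1 library was made from mice of 3, 4 and 5 months, which gives 4 groups (WT N, KO N, WT T and KO T) with 3 libraries of different ages. The labels do not say that libraries came from separate animals, and the p-values speak only of the spread between libraries.

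The colon wall holds isolated lymphoid follicles and larger colonic patches, which are B cell clusters with stromal cells beneath a specialized epithelium. Stromal cells of the follicle secrete the chemokine Cxcl13, which draws in B cells that carry its receptor Cxcr5, while Ccl19 guides lymphocytes and mature dendritic cells that carry Ccr7 into the neighbouring T cell zone. Mature B cells express the signaling chains of the B cell receptor (Cd79a and Cd79b), the surface protein CD20 (Ms4a1), complement receptor 2 (Cr2, also found on follicular dendritic cells) and the lineage factor Pax5. On becoming antibody-secreting plasma cells, B cells turn off Pax5, Ms4a1, Cr2 and Cxcr5 but often keep Cd79a.

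The upstream sequences of genes that were lower in adenoma in at least 5 of 6 matched pairs, and of Cd79a, which was lower in 3 of 6, are shown before the values. RefSeq promoter windows (GRCm38.p6, the patch release of mm10) were found for 5 of the 9 genes, namely Cr2, Ccl19, Pax5, Cxcl13 and Cd79a. The bases just before the transcription start are given 5′ to 3′ on the strand of the gene for the 4 of them that were detected, with bases inside the deposited gene models left out. Capitals mark E-boxes (CAGNTG, the kind of site that E proteins of the B lineage bind) and a TATA box (TATAAA).
Cd79a, chr7:24897247-24897380, plus strand, 134 bases: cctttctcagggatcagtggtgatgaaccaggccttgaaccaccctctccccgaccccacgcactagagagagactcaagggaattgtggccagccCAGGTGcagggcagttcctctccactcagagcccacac
Pax5, chr4:44710695-44710944, minus strand, 250 bases: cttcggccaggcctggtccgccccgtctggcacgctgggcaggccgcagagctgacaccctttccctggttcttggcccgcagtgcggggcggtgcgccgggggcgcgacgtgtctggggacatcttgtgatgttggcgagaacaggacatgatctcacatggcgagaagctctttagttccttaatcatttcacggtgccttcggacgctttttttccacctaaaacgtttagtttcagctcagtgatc
Cr2, chr1:195176720-195176969, minus strand, 250 bases: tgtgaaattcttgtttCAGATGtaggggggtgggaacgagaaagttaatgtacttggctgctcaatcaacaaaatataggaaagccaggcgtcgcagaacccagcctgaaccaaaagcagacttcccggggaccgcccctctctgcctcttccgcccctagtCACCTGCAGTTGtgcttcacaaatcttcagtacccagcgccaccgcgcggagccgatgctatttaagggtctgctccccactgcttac
Cxcl13, chr5:95956689-95956938, plus strand, 250 bases: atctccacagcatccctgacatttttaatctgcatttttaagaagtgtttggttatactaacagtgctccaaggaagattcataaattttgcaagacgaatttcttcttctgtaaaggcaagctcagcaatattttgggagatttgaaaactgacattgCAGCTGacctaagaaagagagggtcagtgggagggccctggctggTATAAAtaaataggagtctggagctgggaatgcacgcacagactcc
Motifs were searched on both strands of the 250 bases before the start. An E-box was found for Cd79a, Cr2, Cxcl13 and Ccl19 but not for Pax5, and 44.8% of the 32851 windows in the RefSeq table held one. The TATA box was found only for Cxcl13 among the 5, 46 to 41 bases before the start, and 12.4% of all windows held one. Both of these motifs were chosen after the sequences were seen, and the TATA box and E-box letters do not overlap. The octamer (ATGCAAAT), the EBF motif (CCCNNGGGA), the PU.1 motif (GAGGAAG) and the kappaB motif (GGGACTTTC) were in none of the 5 windows, against 1.6%, 5.6%, 10.6% and 0.289% of all windows.

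Between 18263611 and 25321931 reads were assigned to genes per library. Values are FPKM, fragments per kilobase of gene length scaled by a factor per library. That factor matched a median-of-ratios size factor, set by the median ratio of genes between libraries, within each deposited table. It did not match the library total: the implied totals were 0.720 to 1.30 times the reads in genes. Libraries of 3 and 4 months were scaled together and those of 5 months separately, so levels at 5 months are on another scale and groups are compared at matched age. Cul4b was 7.88 to 15.0 FPKM in the 6 WT libraries and 0.920 to 2.99 FPKM in the 6 KO libraries. The epithelial marker Epcam was 617 to 1541 FPKM in all 12. One library stood apart before any result: in KO N at 3 months, 9 of 10 smooth muscle genes had their highest level of all 12 libraries, and the counts of calls among the 9 genes are also given without it.

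The B cell receptor chains were the most abundant B cell genes of the set, and they were read in every library. Cd79a (ENSMUSG00000003379, mm10 chromosome 7, 24897381 to 24902197) stood at 5.57, 11.6 and 7.38 FPKM in WT N and at 24.8, 5.02 and 12.7 FPKM in KO N at 3, 4 and 5 months. In adenoma, Cd79a was 1.91, 8.09 and 22.2 FPKM in WT T and 1.54, 7.13 and 13.9 FPKM in KO T. The ranges of N and T overlapped: both T libraries of 3 months lay below every N library, and both T libraries of 5 months lay above their N counterparts. Of all genes tested, 4.1% were lower in T at 3 months and higher at 5 months in both genotypes. The partner chain Cd79b (ENSMUSG00000040592, chromosome 11, 106311341 to 106314762) was 4.98, 10.5 and 4.39 FPKM in WT N and 23.6, 10.4 and 4.57 FPKM in KO N. Its T levels were 1.38, 3.93 and 5.85 FPKM in WT and 3.07, 3.86 and 4.25 FPKM in KO. Cd79b was thus lower in T than in the matched N library in 5 of 6 pairs, the exception being WT at 5 months. Neither chain passed the T minus N test in either genotype with group and age as terms: on the log2(FPKM + 1) scale Cd79a differed by -0.06 in WT (limma, SE 0.75, adjusted p = 0.96) and by -0.93 in KO (SE 0.75, adjusted p = 0.39). For Cd79b the differences were -0.73 in WT (limma, SE 0.55, adjusted p = 0.33) and -1.30 in KO (SE 0.55, adjusted p = 0.11). In KO, Cd79b passed when age was fitted within each tissue (limma adjusted p = 0.039) and when KO N at 5 months was left out (-1.90, adjusted p = 0.037). Without KO N at 3 months it was at -0.54 (limma adjusted p = 0.35) and Cd79a at 0.13 (adjusted p = 0.87). Direction for Cd79a in WT was not stable, at 0.72 when each library was rescaled to TPM, in which every library has the same total. The median difference of all genes in WT moved from 0.01 to 0.76 with that rescaling.

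Ms4a1 and Pax5, which mark mature B cells, were lower in T in all 6 matched pairs. Ms4a1 (ENSMUSG00000024673, chromosome 19, 11249675 to 11266241) was 1.29, 2.79 and 0.313 FPKM in WT N and 5.87, 2.01 and 0.566 FPKM in KO N. In T it was 0.0625, 0.429 and 0.116 FPKM in WT and 0.126, 0.153 and 0.205 FPKM in KO, from 11 to 59 reads per library against 29 to 704 in N. At 3 and 4 months each N library was higher than each T library, and the same held among the libraries of 5 months. In KO, Ms4a1 fell in T by 1.46 log2 units (SE 0.43, limma adjusted p = 0.031). In WT its difference was -0.92 (SE 0.43, limma adjusted p = 0.13), which did not pass. Pax5 (ENSMUSG00000014030, chromosome 4, 44524757 to 44710487), the transcription factor that holds B cell identity, was 0.722, 0.961 and 0.106 FPKM in WT N and 1.65, 0.350 and 0.152 FPKM in KO N. Its T levels were 0.0278, 0.198 and 0.0244 FPKM in WT and 0.0155, 0.0434 and 0.0126 FPKM in KO. These rest on few reads, 14 to 283 per N library and 3 to 39 per T library, and Pax5 lay under the abundance filter of the test (a mean of 0.5 FPKM). N and T did not overlap within either deposited table.

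Cr2 and Cxcr5 were also too low for that filter. Cr2 (ENSMUSG00000026616, chromosome 1, 195136811 to 195176716) was 0.402, 0.556 and 0.00824 FPKM in WT N and 1.60, 0.104 and 0.0720 FPKM in KO N. It was 0.0477, 0.116 and 0.0133 FPKM in WT T and 0.0226, 0.0431 and 0.00460 FPKM in KO T. At 5 months only 1 to 10 reads per library were behind Cr2, and WT T exceeded WT N there by 3 reads against 1, so that no difference was detectable at that depth. At 4 months KO N, at 0.104 FPKM, lay below WT T, at 0.116 FPKM, so the N and T ranges of Cr2 overlapped. Cxcr5 (ENSMUSG00000047880, chromosome 9, 44511787 to 44561877) was 0.627, 0.778 and 0.200 FPKM in WT N and 2.14, 0.388 and 0.140 FPKM in KO N. In T the receptor was 0.127, 0.405 and 0.0863 FPKM in WT and 0.137, 0.157 and 0.0448 FPKM in KO. Cxcr5 was lower in T than in matched N in 6 of 6 pairs, although WT T at 4 months slightly exceeded KO N at 4 months.

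The ligand of Cxcr5 was the most abundant gene of the set in N. Cxcl13 (ENSMUSG00000023078, chromosome 5, 95956951 to 95961068) was 6.20, 27.1 and 18.8 FPKM in WT N and 33.7, 30.4 and 29.6 FPKM in KO N. In T it was 2.60, 1.72 and 5.97 FPKM in WT and 6.29, 1.64 and 17.4 FPKM in KO. WT N at 3 months, at 6.20 FPKM, was just below KO T at 3 months, at 6.29 FPKM. This was the only overlap between N and T within a table. Cxcl13 fell in T in both genotypes, by 1.96 log2 units in WT (limma, SE 0.61, adjusted p = 0.033) and by 2.18 in KO (SE 0.61, adjusted p = 0.025), and it was lower in T in 6 of 6 pairs. The group means went from 17.4 ± 10.5 to 3.43 ± 2.24 FPKM in WT and from 31.2 ± 2.14 to 8.46 ± 8.12 FPKM in KO (SD, n = 3, over both scales).

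Of the T zone pair, Ccl19 was almost unread and Ccr7 was higher in T in most pairs. Ccl19 (ENSMUSG00000071005, chromosome 4, 42754525 to 42756577) had 1 read in all 12 libraries together, in WT N at 4 months, and its other row on an unplaced scaffold had none. A count of 0 allows up to 3 reads, which is 0.121 to 0.231 FPKM for this gene depending on the library. Ccr7 (ENSMUSG00000037944, chromosome 11, 99144196 to 99155077) was 0.653, 0.420 and 0.304 FPKM in WT N and 1.15, 0.285 and 0.413 FPKM in KO N, from 9 to 44 reads. In T, Ccr7 was 0.889, 2.41 and 1.80 FPKM in WT and 0.856, 2.17 and 0.754 FPKM in KO, from 37 to 123 reads. It was higher in T in 5 of 6 pairs, the exception being KO at 3 months, and 33.8% of all genes with enough reads were higher in T in at least 5 pairs. Its T minus N difference did not pass, at 0.85 in WT (limma, SE 0.30, adjusted p = 0.054) and 0.47 in KO (SE 0.30, adjusted p = 0.28). Under TPM rescaling it passed in WT, with a difference of 1.74 and a limma adjusted p of 0.0057. That rescaling also moved the median difference of all genes in WT, from 0.01 to 0.76.

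**Figure D1:**
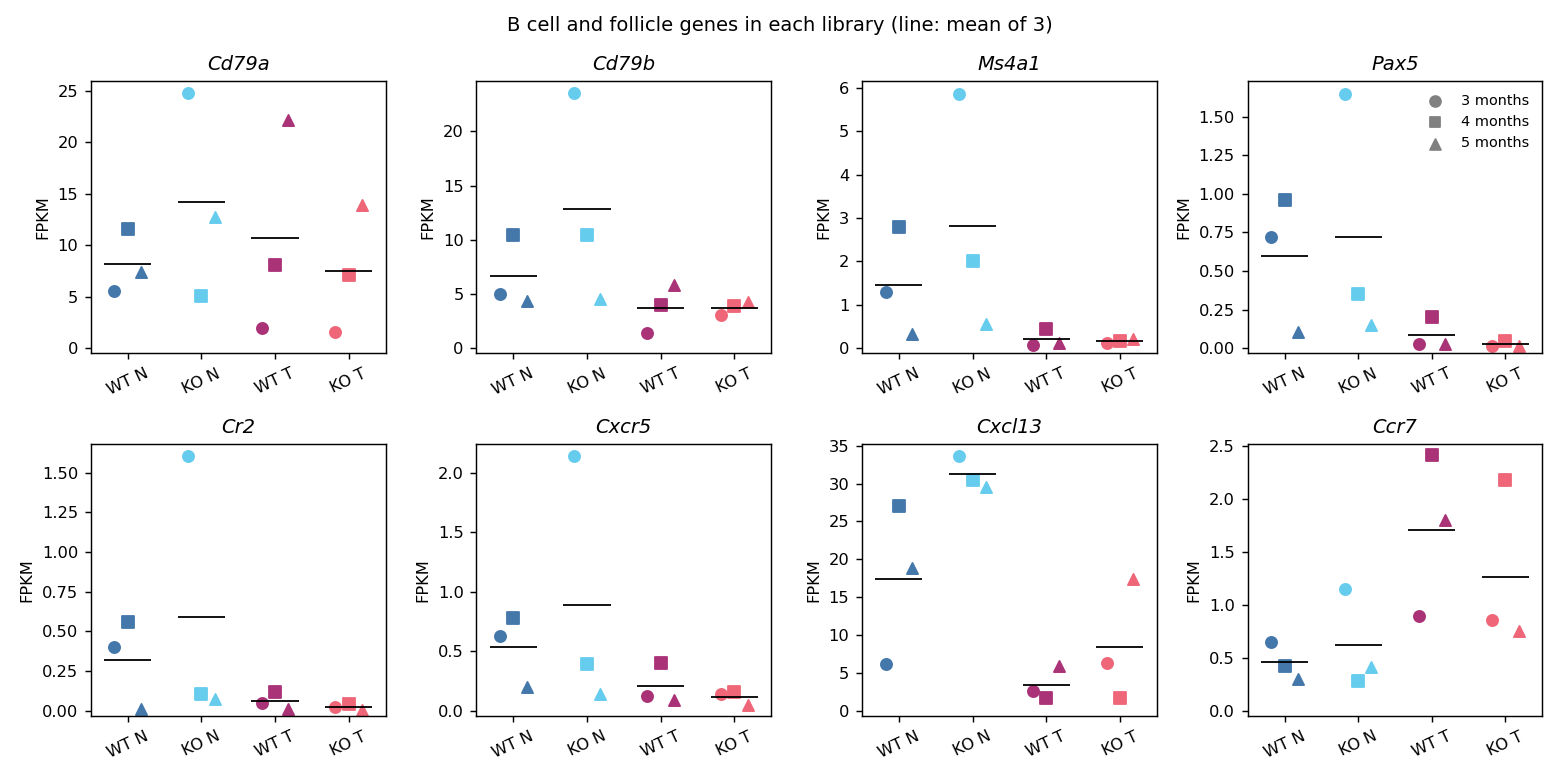
Level of each detected gene in each library (y axes, FPKM from 0, with a scale per gene) for the 4 groups (x axes), with symbols for age and a line at the mean of 3 libraries. Ms4a1 and Pax5 are near 0 in T, Cd79a at 5 months is higher in T, at 22.2 FPKM in WT, and KO N at 3 months is the highest point for 7 of the 8 genes.

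Across the set, 5 of the 9 genes passed the abundance filter. By limma, 1 of these 5 (Cxcl13) was called in WT, where 36.1% of all genes tested were called and 19.9% were called lower. In KO, 2 of these 5 (Cxcl13 and Ms4a1) were called, where 30.0% of genes were called and 16.0% were called lower. To reach the less abundant genes, voom was fitted to the reads recovered from FPKM for genes with at least 10 reads in at least 3 libraries, a choice made after the data were seen that takes in 8 of the 9. In WT this called 3 genes, all lower in T, against 35.4% of genes called and 19.0% called lower. They were Pax5 (log2 difference -3.19, SE 0.89, voom adjusted p = 0.017), Ms4a1 (-3.07, SE 0.92, adjusted p = 0.024) and Cxcl13 (-2.21, SE 0.76, adjusted p = 0.043). In KO it called 5, all lower, against 30.3% called and 16.0% called lower. Pax5 differed by -4.29 (SE 1.03, voom adjusted p = 0.0099), Ms4a1 by -3.80 (SE 0.86, adjusted p = 0.0070) and Cxcl13 by -2.29 (SE 0.63, adjusted p = 0.019). Cxcr5, at -2.43 (SE 0.79, voom adjusted p = 0.040), and Cr2, at -3.67 (SE 1.25, adjusted p = 0.048), passed in KO only narrowly. In WT, Cxcr5 was at -1.61 (SE 0.74, voom adjusted p = 0.12) and Cr2 at -2.37 (SE 1.16, adjusted p = 0.14). With no age term this fit called none in WT (Pax5 at a voom adjusted p of 0.084, Ms4a1 at 0.092) and 3 in KO, and without the 5-month libraries it called none in WT and 2 in KO. On the 15526 genes of the limma fit, voom called Ms4a1 alone in WT (-3.05, voom adjusted p = 0.027), with Cxcl13 at -2.16 (adjusted p = 0.054), and both in KO. Of the 8 genes, 4 (Ms4a1, Pax5, Cxcr5 and Cxcl13) were lower in T in all 6 pairs, as were 21.4% of all genes with enough reads.

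**Figure D2:**
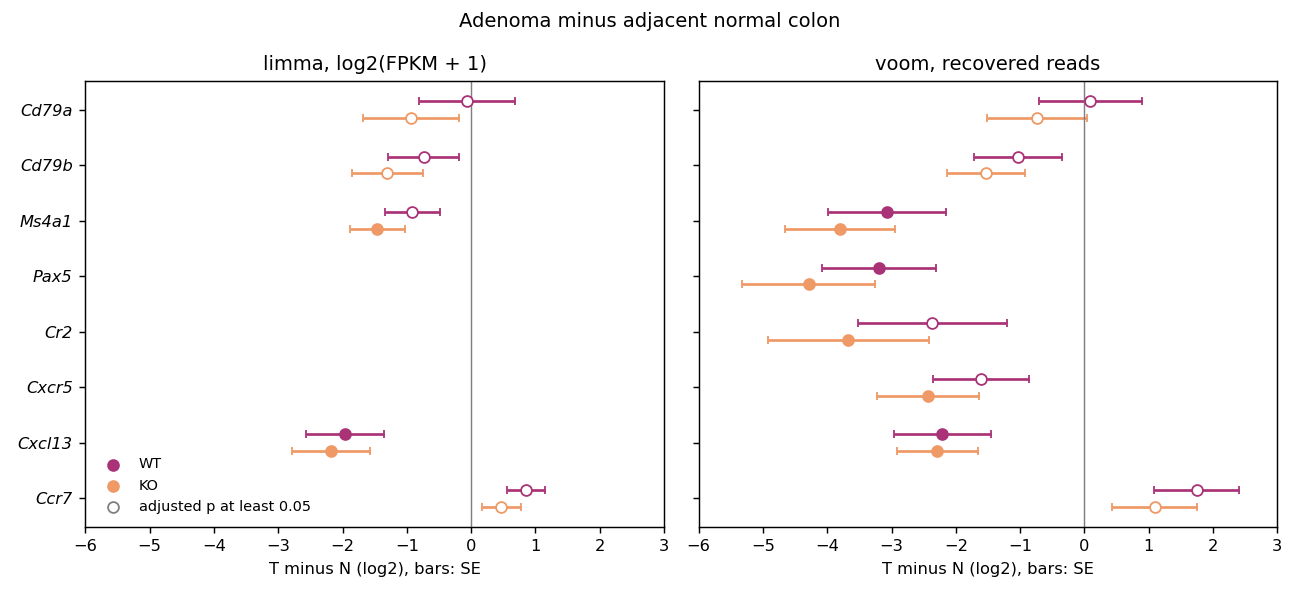
Difference between adenoma and normal colon (x axis, log2) for each gene by limma on log2(FPKM + 1), left, and by voom on recovered reads, right, with bars of 1 SE and filled points where the adjusted p is under 0.05. Genes under the limma filter have no point on the left. Estimates are negative except for Ccr7 in both panels and for Cd79a in WT by voom, at 0.09.

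Without KO N at 3 months, the T minus N calls in KO changed. By limma none of the 9 genes was then called in KO (2 with it), with Cxcl13 at -1.92 (limma adjusted p = 0.078) and Ms4a1 at -0.87 (adjusted p = 0.076). By voom, 2 remained called, Pax5 at -3.24 (voom adjusted p = 0.012) and Ms4a1 at -2.91 (adjusted p = 0.0095), and Cxcr5, Cr2 and Cxcl13 were lost. In WT the same omission, which changes only the shared estimate of spread and the age terms, raised the calls to 3 by limma and 6 by voom, the latter holding Ccr7 as the only gene called higher. The shares of all genes called with a library left out are not given here, so these counts speak only of the 9 genes. Each WT T library, WT N at 4 and at 5 months, KO N at 4 months and KO T at 4 months also decided a limma call: without any one of them, Cxcl13 was not called in the genotype concerned, at -2.14 to -1.21 in WT (limma adjusted p of 0.068 to 0.12) and at -1.44 in KO without KO T at 4 months (adjusted p = 0.091, also without KO N at 4 months). Leaving out all libraries of any 1 age had the same effect in both genotypes. Ms4a1 in KO was not called without KO N at 4 months (-1.67, limma adjusted p = 0.0504) or without KO T at 3 months (-1.27, adjusted p = 0.10) or at 4 months (-1.30, adjusted p = 0.11). WT T at 3 months decided the voom calls in WT: without it all 3 were lost and Ccr7 was called instead, higher in T (voom adjusted p = 0.024), and without WT N at 4 months no gene was called in WT by voom. In KO, Pax5 was called by voom whichever single library was left out, and it was the only one called without KO T at 4 months.

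No difference between the genotypes passed for these genes. None of the 9 was called in KO minus WT in T, in KO minus WT in N or in the genotype by tissue interaction, by limma or by voom. The comparisons within T and within N each had 1 gene called, of 15526 by limma (0.00644%) and of 18337 by voom (0.00545%), and the interaction had 0 (0.0%). At an unadjusted p under 0.05 the count was also 0, of 5 genes tested by limma and of 8 by voom. In N, the KO minus WT differences by limma ran from 0.12 (Ccr7, SE 0.30) to 1.02 (Cxcl13, SE 0.61). Cxcl13 was higher in KO N than in WT N at all 3 ages, as were 7.95% of all genes with enough reads, while the others were higher at 1 or 2 ages. In T, the differences ran from -0.33 (Cd79a, SE 0.75) to 0.79 (Cxcl13, SE 0.61). The interaction estimates by limma were all below 0, from -0.87 (Cd79a, SE 1.06) to -0.23 (Cxcl13, SE 0.86), each smaller in size than its SE. These signs rest on KO N at 3 months. Without it 4 of the 5 KO minus WT differences in N were below 0 (median -0.08, against 0.54 with it), with Cxcl13 at 0.75. The interaction then had 1 of 5 below 0 (Ccr7, -0.07), with a median of 0.04 against -0.54, and no gene was called in either comparison.

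KO N at 3 months carried the highest level of 7 of the 8 detected genes among the libraries of 3 and 4 months, all but Ccr7. Of all genes with enough reads, 11.0% peaked in that library. Against WT N of the same age it held 4.55 times the Ms4a1, 4.73 times the Cd79b, 4.45 times the Cd79a, 3.99 times the Cr2, 3.41 times the Cxcr5, 2.28 times the Pax5 and 5.43 times the Cxcl13, each between 1 library and 1 library. Smooth muscle genes were high in this library too. Their summed level was 647 FPKM in this library, 36.9 to 123 FPKM in the 5 other N libraries and 26.9 to 311 FPKM in T. Actg2, a visceral smooth muscle actin, was 192 FPKM there against 4.96 to 29.7 FPKM in the other N libraries, and Acta2, a smooth muscle and myofibroblast actin, was 156 FPKM against 13.7 to 46.1 FPKM. Des, the muscle intermediate filament desmin, was 103 FPKM against 1.88 to 17.1 FPKM. Smooth muscle level was also high in WT T (311 FPKM) and KO T (233 FPKM) at 5 months. Ms4a1 and Pax5 were low there, while Cd79a, at 22.2 and 13.9 FPKM, had its highest T levels. The 9 genes summed to 36.0 and 36.6 FPKM there, on their own scale, and to 7.04 to 17.3 FPKM in the other T libraries. WT N at 4 months had the lowest smooth muscle sum in N, 36.9 FPKM. The mean log2(FPKM + 1) of the 9 genes, centred within each table, was 0.52 there and 1.16 in KO N at 3 months. The part of tissue sampling in the high B cell gene levels of that N library was not tested. In bulk tissue, fewer cells of a type and less RNA per cell cannot be told apart.

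**Figure D3:**
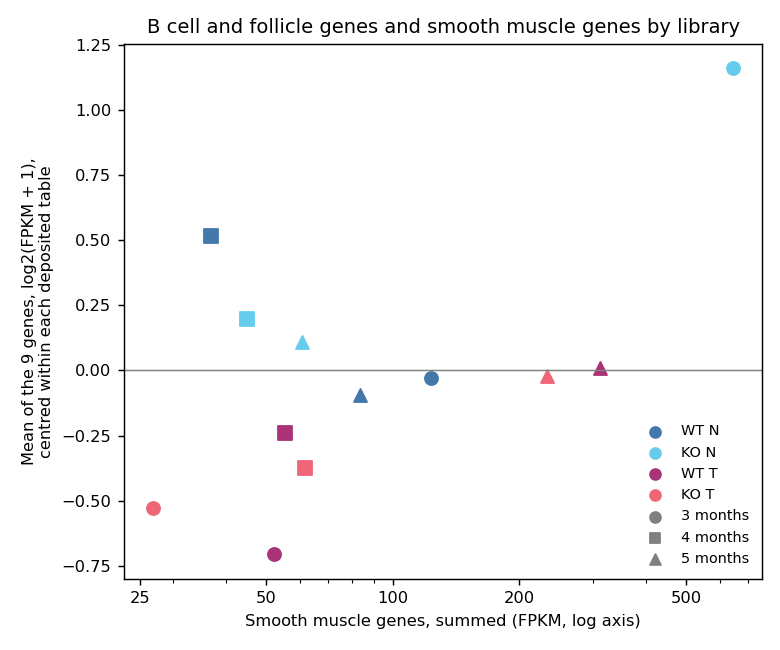
Mean of the 9 genes (y axis, log2(FPKM + 1) centred within each deposited table) against the summed level of 10 smooth muscle genes (x axis, FPKM, log axis), 1 point per library. KO N at 3 months is at the top right, at 1.16 and 647 FPKM, while the T libraries of 5 months have high smooth muscle levels with means of 0.01 and -0.02.

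Cd79a and Ms4a1 were both lower in T at 3 months, and only Ms4a1 was lower at 5 months. Per unit of gene length, the ratio of Cd79a to Ms4a1 was 2.50 to 4.31 in the 4 N libraries of 3 and 4 months and 12.2 to 46.7 in the T libraries of those ages. At 5 months it was 23.6 and 22.4 in N (WT and KO) and 191 and 67.7 in T. The ratio was higher in T in 6 of 6 pairs with no overlap inside either table. Cd79b over Ms4a1 moved the same way, from 3.75 to 5.18 in N to 9.16 to 25.3 in T at 3 and 4 months. Plasma cell genes were set beside Cd79a in T. Igha, the heavy chain of IgA, was 522, 1234 and 5527 FPKM in WT T and 431, 1653 and 2907 FPKM in KO T, the libraries in which Cd79a was 1.91, 8.09 and 22.2 FPKM and 1.54, 7.13 and 13.9 FPKM. Pou2af1, a coactivator of immunoglobulin transcription, was 2.58, 7.43 and 17.7 FPKM in WT T and 2.98, 7.12 and 8.87 FPKM in KO T. Within each genotype, the T libraries had the same order for Cd79a, Igha and Pou2af1, with the 5-month values on their own scale. Other genes of the plasma cell list had another order, such as Jchain, at 1222, 846 and 889 FPKM in KO T, and Mzb1, at 19.5, 72.8 and 44.5 FPKM there. These examples were picked after their values were seen.

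**Figure D4:**
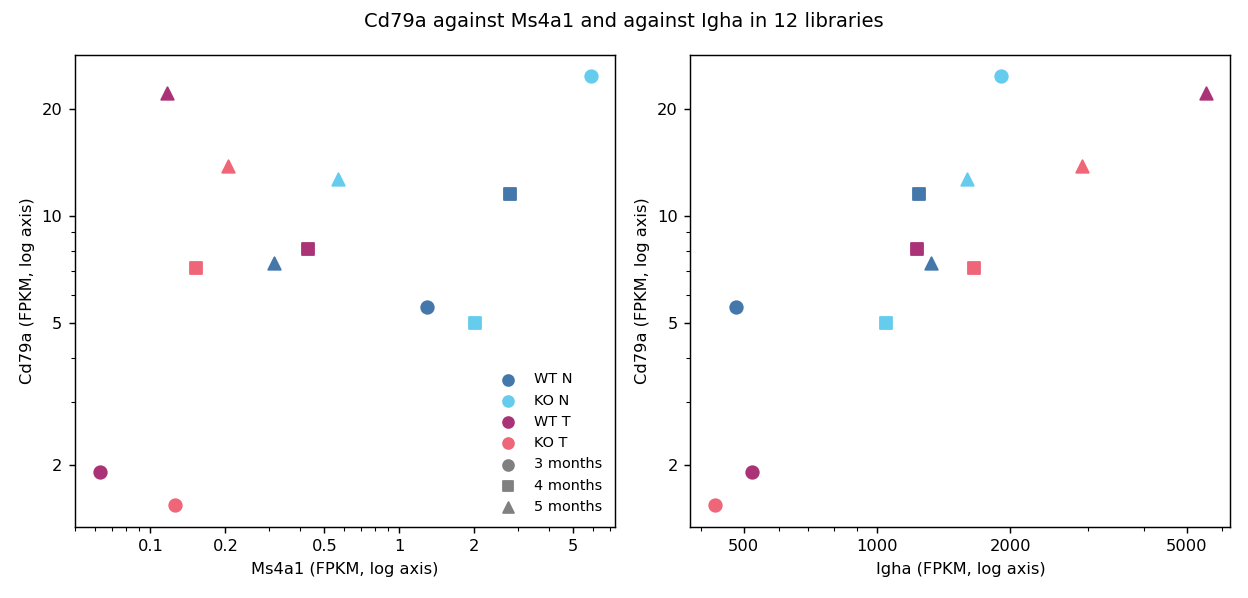
Cd79a (y axes) against Ms4a1 (left x axis) and Igha (right x axis), all in FPKM on log axes, 1 point per library with color for group and symbol for age. In the Ms4a1 panel each T library lies to the left of both N libraries of its age, and in the Igha panel the WT T library of 5 months reaches 5527 FPKM beside a Cd79a of 22.2 FPKM.

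Immunoglobulin constant regions were read in the same libraries. Ighd, the IgD heavy chain of naive B cells, was 2.78, 5.19 and 0.281 FPKM in WT N and 12.2, 1.60 and 1.20 FPKM in KO N. It was 0.111, 1.16 and 0.170 FPKM in WT T and 0.145, 0.386 and 0.177 FPKM in KO T, lower than the matched N library in all 6 pairs, and its difference did not pass (-1.14 in WT, limma adjusted p = 0.18, and -1.78 in KO, adjusted p = 0.056). Of 11 constant regions tested, 1 rose in WT (Ighg2c, by 1.50, limma adjusted p = 0.026) and 1 fell in KO (Ighg3, by 0.62, adjusted p = 0.048). Their median differences were 0.04 in WT and -0.16 in KO, against 0.01 and 0.02 for all genes. Among the constant regions that did not pass, Igkc, the kappa light chain, differed by 0.45 in WT and by 0.00 in KO, Igha by 0.72 and -0.21, and Ighm by -0.62 and -0.07. Iglc1, Iglc2 and Iglc3 were at -0.32, -0.93 and -1.19 in WT and -0.15, -1.38 and -1.35 in KO. Ighg1 was at 1.18 and -0.16 and Ighg2b at 0.63 and 0.10. These genes are near-copies of one another in part, so reads can be split between them.

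The genes whose profiles were most like the mean of the 9, by Pearson correlation over the 12 libraries of log2(FPKM + 1) centred within each table, were mostly other B cell genes. They were Btla (r = 0.98), an inhibitory receptor of lymphocytes, Cd22 (0.98), an inhibitory coreceptor of B cells, and Tnfrsf13c (0.98), the receptor for the survival factor BAFF. H2-Ob (0.98), a class II chaperone of B cells, Gimap8 (0.98), a lymphocyte GTPase, Blk (0.97), a B cell kinase, and Tnfrsf13b (0.97), another BAFF family receptor, followed, as did Asb2 (0.96) and Col4a5 (0.96), a basement membrane collagen chain. The libraries share their depth scaling, and KO N at 3 months held the highest level of each of these genes. Without it r ran from 0.92 for Col4a5 to 0.96 for Btla over 11 libraries.

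Context came from 12 lists of genes tied to B cells, follicles and neighbouring cells. Their counts of calls stand beside 36.1% of all genes tested in WT and 30.0% in KO. Those shares belong to the fit on all 12 libraries. The shares without KO N at 3 months are not given here, so list counts from that fit are not set against all genes. Of 23 other B cell genes tested, 1 rose (Cd40) and 2 fell (Spib and Blnk) in WT, and 1 rose (Cd40) and 3 fell (Spib and Blnk among them) in KO, with medians of -0.21 and -0.46. Without KO N at 3 months, the counts in KO were 2 higher and 1 lower, at a median of -0.01, and those in WT 2 higher and 5 lower. Blnk, an adaptor of the B cell receptor also made by other cells, went from 9.77 to 19.1 FPKM in WT N to 4.29 to 11.9 FPKM in WT T. The fall was -0.64 in WT (limma, adjusted p = 0.032) and -0.71 in KO (adjusted p = 0.026). Pou2af1 differed by 0.60 in WT and -0.02 in KO. Cd40, Spib and other genes named here to spell out a short count were picked after their values were seen.

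Germinal center genes are active where B cells mutate their antibody genes. In WT, 3 of 11 tested were called higher in T and 2 lower, and in KO 2 higher and 2 lower, counts near the 36.1% and 30.0% of all genes called. Basp1, a membrane signaling protein, rose (3.15 in WT, 3.23 in KO), and the sphingosine receptor S1pr2 rose by 0.82 and 0.92, while Bcl6, the master repressor of the germinal center, rose in WT by 0.75 (limma adjusted p = 0.017) and was at 0.49 in KO (adjusted p = 0.095). Rgs13, a regulator of G protein signaling, fell by 3.07 in WT and 2.51 in KO, and the death receptor gene Fas fell by 1.46 and 1.57. Fas and Bcl6 are expressed by other cells too, at 11.8 to 28.5 FPKM for Fas in N. Mybl1, Ung, Il21r, Klhl6, Nuggc and Hvcn1 did not pass, with differences from -0.32 to 0.24 in WT and from -0.40 to -0.16 in KO. Gcsam, a germinal center signaling protein, lay under the filter at 0.0512 to 1.05 FPKM in N and 0.0802 to 0.223 FPKM in T, and was highest in KO N at 3 months.

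Among follicular dendritic and lymphoid stroma genes, 5 of 17 tested rose and 3 fell in WT, against 3 and 2 in KO. The secreted chaperone Clu rose (2.92 in WT, 2.81 in KO), and Grem1, a BMP antagonist of stroma, rose by 1.88 and 1.95. Mfge8, an opsonin of follicular dendritic cells and other cells, was at 1.16 in WT (limma adjusted p = 0.14) and 0.88 in KO (adjusted p = 0.28). Icam1, Pdpn and Bst1 also rose in WT, Icam1 also in KO, while Chst4, Il7 and Cxcl12 fell in WT and Chst4 and Tnfsf13b in KO. Madcam1, the addressin of gut venules, was at 0.25 in WT and -0.51 in KO and did not pass. In the lymphotoxin pathway, which sets up follicles, the counts were near the 36.1% (WT) and 30.0% (KO) of all genes called. In WT 4 of 14 tested rose (Tnf, Tnfsf14, Traf3 and Nfkb2) and in KO 3 (Tnf, Traf3 and Id2), and 1 fell in each genotype. The most abundant gene of this pathway, the receptor Ltbr, was at -0.12 and -0.23, Tnfrsf1a at 0.48 and 0.01 and Id2 at 0.42 in WT, none of which passed. Without KO N at 3 months, 8 stroma genes rose in each genotype, with 3 falling in WT and 1 in KO. The share of all genes called in that fit is not given here, so these counts are not read as particular to the list.

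Dendritic and T cell genes were examined because both cell types can carry Ccr7. Of 8 dendritic cell genes tested, 5 rose (Fscn1, Ccl17, Cd80, Cd86 and Itgax) and 1 fell (Irf8) in WT, and 2 rose (Fscn1 and Ccl17) and 1 fell (Irf8) in KO, with medians of 0.85 and 0.57. Fscn1, an actin bundler of mature dendritic cells, rose (1.61 in WT, 1.40 in KO), and the chemokine Ccl17 rose by 1.53 and 2.38, whereas Irf8 fell by 0.85 and 1.12. Of 15 naive T cell and homing genes, 3 rose in WT (Tcf7 and Lef1 among them) and 2 in KO (Tcf7 and Lef1), and none fell, with medians of 0.29 and 0.07. Tcf7 and Lef1 are Wnt pathway factors as well as T cell factors, and Cd3d and Cd3g, chains of the T cell receptor complex, did not pass in either genotype (0.10 and -0.41 in WT, -0.22 and -0.42 in KO). Klf2 and Itgb7 did not pass, at 0.34 and -0.15 in WT and -0.18 and -0.53 in KO. Of 15 other chemokine genes, 4 rose in each genotype (Cxcl9, Cxcl10, Cxcl16 and Ackr3), 2 fell in WT (Ccl28 and Cxcl12) and 1 fell in KO (Ccl28). The interferon-induced ligand Cxcl10 rose by 3.03 and 2.99, Cxcl9 by 2.46 and 2.32, and the epithelial ligand Ccl28 fell by 3.79 and 3.65.

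Genes of other cell types of the tissue were also compared between T and N, beside 36.1% of all genes called in WT and 30.0% in KO. Of 9 epithelial genes, 7 fell in WT and 5 in KO, with Krt8 falling by 1.54 and 1.13. Epcam fell by 0.73 and Krt19 by 1.14 in WT, and in KO these were at -0.50 and -0.77 and did not pass. Of 10 smooth muscle genes, none was called in WT and 1 fell in KO (Tagln), which had no call without KO N at 3 months. Of 17 plasma cell genes, 2 rose (Sdc1 and Ighg2c) and 1 fell (Pigr) in WT, and 1 rose (Sdc1) and 4 fell (Pigr, Xbp1, Tnfrsf17 and Ighg3) in KO, where 1 rose and 1 fell without KO N at 3 months. Pigr, the epithelial carrier of IgA kept on that list, fell by 2.73 and 2.79, and Jchain, which joins IgA, was at -0.80 and -0.75 and did not pass. Of 8 genes of follicle-associated epithelium and M cells, 2 rose (Marcksl1 and Tnfaip2) and 2 fell (Spib and Tnfrsf11a) in each genotype. Marcksl1 rose by 2.92 and 3.37, while Ccl9 was at -1.09 and -0.72 and Anxa5 at 0.86 and 0.87. Ccl20, the ligand that this epithelium makes, was 21.6 FPKM in KO N at 3 months and 0.617 to 6.06 FPKM in the other N libraries. Without KO N at 3 months, 6 epithelial genes fell in WT and 2 in KO, 5 naive T cell genes rose in WT and 4 in KO, 3 dendritic cell genes rose in KO, and constant regions had 1 call each way in WT and none in KO. The part of these cell types in the differences of the 9 genes was not tested.

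Scaling affects how all of these differences are read. The deposited values follow size factors set by median ratios between libraries, whereas TPM gives each library the same total. T libraries have lower summed FPKM, so TPM rescaling moved the median T minus N difference of all genes from 0.01 to 0.76 in WT and from 0.02 to 0.57 in KO, and the share of calls that were higher in T from 45.0% to 87.5% in WT and from 46.6% to 84.4% in KO. Of all 15526 genes, TPM rescaling called 8061 higher and 1149 lower in WT, and 6410 higher and 1181 lower in KO. The counts of the lists below stand beside these. Under TPM rescaling the 23 other B cell genes had medians of 0.32 and 0.01, below those of all genes, with 4 called higher and 0 lower in WT and 3 higher and 2 lower in KO. Counts of higher and lower calls under TPM in WT and KO were 4 and 2, and 3 and 2, for germinal center genes, 8 and 1, and 5 and 1, for stroma genes, and 12 and 1, and 10 and 1, for the lymphotoxin pathway. They were 6 and 0, and 5 and 0, for dendritic cell genes, 8 and 0, and 5 and 0, for naive T cell genes, and 7 and 1, and 6 and 1, for chemokine genes. For plasma cell genes they were 8 and 1, and 3 and 1, for constant regions 5 and 0, and 1 and 0, for M cell genes 4 and 1, and 3 and 2, for epithelial genes 1 and 2 in each genotype, and for smooth muscle genes 0. Of the 9 genes, Cxcl13 was then at -1.30 in WT (limma adjusted p = 0.13) and -1.71 in KO (adjusted p = 0.063), and Ms4a1 passed in KO at -1.69 (adjusted p = 0.031).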

How the data were processed

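Total RNA from colon was sequenced with a NEBNext Ultra kit, per the labels' protocols. The submitters' processing notes name mm10, featureCounts 1.5.0-p3, StringTie and DESeq2. An aligner and an annotation release were not given in the sources. The authors deposited FPKM for 52636 genes, in a table of 8 libraries (3 and 4 months) and one of 4 (5 months), with a deposited gene length column, in bases, as an other unit. FPKM times length gave whole reads in 100% of values (tolerance 0.01 read), on totals scaled separately per table.

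Differences were fitted with limma 3.58.1 (R 4.3.3, lmFit and eBayes with trend) on log2(FPKM + 1), pseudocount 1, for the 15526 genes whose mean reached 0.5 FPKM, with group and age as terms, 6 residual degrees of freedom and Benjamini-Hochberg adjustment at 0.05 in each of 5 comparisons. This fold scale understates changes of low genes. Voom on recovered reads used median-of-ratios size factors and 18337 genes. Scripts were tested on simulated data. Alternatives were the pseudocount, filters, TPM rescaling, voom, age terms and leaving out libraries or ages. Samples of the same age deviated together (median correlation of deviations 0.41 over 18 pairs, lowest -0.03). Pairs of other ages had a median of -0.26 over 36 pairs. Deviations were taken from the mean of each group, so correlations above 0 at the same age pull those of other ages below 0. Age is also the deposited table, and the labels do not tie libraries to animals.

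The genes and lists were chosen with earlier results of these data known. Genes named were the 9, the 3 most abundant tested genes of each of 12 lists (all tested germinal center and constant region genes), the 10 most like the mean of the 9 and Cul4b. Some genes of the lists are not reported here. Intervals and floors of 3 reads cover counting error only.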

Additional observations from a re-analysis of the deposited data

Results flagged for a closer look

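Cd79a was lower in adenoma at 3 months and higher at 5 months in both genotypes, though only slightly higher in KO. At 3 months T minus N was -1.18 in WT and -3.34 in KO on the log2(FPKM + 1) scale, a mean of -2.26. At 5 months it was 1.47 in WT and 0.12 in KO, a mean of 0.79. At 4 months the genotypes had opposite signs, at -0.47 in WT and 0.43 in KO, and the KO value was larger than at 5 months. The difference between the ages was not tested: there was 1 library per genotype, tissue and age, the ages stand in separately scaled tables, and 4.1% of all genes tested were lower at 3 months and higher at 5 months in both genotypes. The KO value at 3 months rests on the N library with the high smooth muscle level, and the WT value does not.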

How the results depend on the processing

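Counts of called genes, of 9, moved with the settings, and an equal count can hide a change of gene. Under TPM rescaling T minus N in WT kept 1 call, but it was Ccr7, higher in T, in place of Cxcl13, lower in T. Shares of all genes called are given only for the main fit, TPM rescaling and the added voom fit. T minus N in WT had 1 called gene, and 0 with no filter on low values, 0 with no age term (no replicate block), 2 with age terms within tissue (replicate block within tissue), 3 by the added voom fit and 0 to 3 when a library or an age was left out. T minus N in KO had 2, and 0 with no filter, 0 with only the 2 groups compared, 1 with a filter at a mean of 2 FPKM, 1 under TPM rescaling, 1 with no age term (no replicate block), 5 by the added voom fit and 0 to 3 on leaving out a library or an age. KO minus WT in T and in N and the interaction had 0 in all alternatives run. Among 712 values of single genes under alternatives, 602 kept direction and side of the threshold, 61 lost a call, 15 gained one and 34 changed sign. Cd79a in WT T minus N changed sign under TPM rescaling (0.72), voom (0.15) and the added voom fit (0.092); the cause was not tested. All other sign changes came from leaving out a library or an age, with these ranges. Cd79a ran from -0.82 to 0.57 (T minus N in WT), -1.62 to 0.28 (T minus N in KO), -0.97 to 0.21 (KO minus WT in T), -0.53 to 1.34 (KO minus WT in N) and -1.76 to 0.19 (interaction). Cd79b ran from -0.41 to 0.68 (KO minus WT in T), -0.070 to 1.29 (in N) and -1.17 to 0.19 (interaction), and Ms4a1 from -0.38 to 0.21, -0.083 to 0.92 and -0.92 to 0.044. Cxcl13 ran from -0.98 to 0.52 (interaction) and Ccr7 from -0.19 to 0.41 (KO minus WT in N). Depth limits Cr2, Pax5 and Cxcr5, with 1 to 39 reads per T library.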

Other observations

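Immunoglobulin variable segments, which the comparisons above do not use, were higher in summed level in T than in matched N in every pair. Of single genes with enough reads, 33.8% were higher in T in at least 5 of 6 pairs. The summed level of heavy chain segments (Ighv) was 161 to 715 FPKM in the 6 N libraries and 389 to 2984 FPKM in the 6 T libraries, with T over N of 1.77 to 6.08 in the 6 pairs. Kappa segments (Igkv) were 590 to 1466 FPKM in N and 853 to 3469 FPKM in T, with T over N of 1.45 to 3.36. Relative to the summed heavy chain constant regions, the Ighv level was 0.160 to 0.412 in N and 0.521 to 1.37 in T, without overlap. Relative to Igkc alone, the Igkv level was 0.161 to 0.345 in N and 0.213 to 0.693 in T, with overlap. The most abundant Ighv segment took 5.22% to 7.90% of Ighv reads in N and 5.74% to 9.14% in T. Segments are near-copies that share reads, so single segments were not compared.

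Ighm, the IgM heavy chain, was 65.7 FPKM in KO T at 5 months and 1.42 to 27.5 FPKM in the other 11 libraries. In that library Ighd was 0.177 FPKM, Ms4a1 0.205 FPKM and Pax5 0.0126 FPKM, and IgM made 2.11% of the heavy chain constant region level against 0.116% in WT T at 5 months. KO T at 3 months had the lowest IgA share, 84.8%, beside 9.69% for Ighg2c, where the other 11 libraries had IgA shares of 92.2% to 96.6%.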
